A study of Mus musculus with 12 samples.

Results

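The presynaptic vesicle and release machinery was described across the adult mouse forebrain through 39 genes, chosen by symbol from a list of synaptic vesicle proteins, calcium sensors, fusion proteins, active zone proteins, transmitter transporters, endocytic proteins and neurexins. All 39 were found among the 56748 genes of the count table, each with 1 Ensembl identifier, and all 39 passed the filter on low counts that left 17995 genes for testing. RNA sequencing had been done on 12 libraries of 4 groups, 3 libraries each. These were knockout mice exposed before birth to valproic acid (exposed knockouts, htr_V), knockout mice without the drug (unexposed knockouts, htr), wildtype mice exposed before birth (exposed wildtypes, WT_V) and wildtype mice without the drug (unexposed wildtypes, WT). The genotype label is htr3a Notch KO, and the study's design text calls the mice Notch conditional knockouts. The labels name neither the Notch gene removed, the driver of its removal or the cells concerned, nor the dose and day of the drug or the sex and strain of the mice, so the knockout could not be checked against a target gene. The labels do not say whether the 3 libraries of a group came from separate animals, and p-values therefore measure only the spread between these libraries.

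Neurotransmitter is stored in synaptic vesicles, which are filled by transmitter transporters, held in reserve by synapsins, docked and primed at the active zone by RIM and Munc13 proteins, and fused with the membrane by the SNARE proteins. Calcium entering the terminal is sensed by synaptotagmins, complexins hold and then assist the SNARE complex, and dynamin and amphiphysin retrieve vesicle membrane afterwards. Valproic acid is an anticonvulsant that inhibits histone deacetylases, and its prenatal use is a widely used rodent model of autism. Notch receptors pass signals between neighbouring cells and act on target genes through the DNA-binding protein Rbpj.

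The promoters shown are those of the 4 members that passed edgeR's test below in the fit to all 12 libraries. Unc13b and Slc17a7 passed it only in the mean of both drug effects, a contrast chosen after the data were seen. Each runs from 250 bases before to 50 bases after a RefSeq transcription start on GRCm38.p6 and is written 5′ to 3′ along the gene. Capitals mark the GC box, searched as GGGCGG and as CCGCCC on the other strand, the site type bound by Sp1-family factors. Synpr has starts at 2 places, which are both shown.
Slc17a7 promoter, chr7:45163671-45163970, plus strand: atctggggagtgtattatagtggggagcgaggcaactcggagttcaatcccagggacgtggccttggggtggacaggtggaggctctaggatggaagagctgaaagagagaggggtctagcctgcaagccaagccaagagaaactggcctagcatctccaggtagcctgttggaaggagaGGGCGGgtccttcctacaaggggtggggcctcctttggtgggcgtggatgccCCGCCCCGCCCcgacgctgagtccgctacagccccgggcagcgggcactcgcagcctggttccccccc
Synpr promoter, chr14:13284530-13284829, plus strand: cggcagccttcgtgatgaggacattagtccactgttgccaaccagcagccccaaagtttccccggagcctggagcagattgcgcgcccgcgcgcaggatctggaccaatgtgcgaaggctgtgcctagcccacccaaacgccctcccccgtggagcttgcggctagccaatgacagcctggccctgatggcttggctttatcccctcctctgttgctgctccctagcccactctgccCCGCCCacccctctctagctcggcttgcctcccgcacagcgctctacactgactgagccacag
Synpr promoter, chr14:13453708-13454007, plus strand: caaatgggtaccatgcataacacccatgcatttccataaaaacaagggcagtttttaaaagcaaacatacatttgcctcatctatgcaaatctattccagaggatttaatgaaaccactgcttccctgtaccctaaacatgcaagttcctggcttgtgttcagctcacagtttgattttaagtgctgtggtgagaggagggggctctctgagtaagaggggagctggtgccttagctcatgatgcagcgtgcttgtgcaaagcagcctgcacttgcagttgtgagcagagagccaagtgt
Unc13a promoter, chr8:71671708-71672007, minus strand: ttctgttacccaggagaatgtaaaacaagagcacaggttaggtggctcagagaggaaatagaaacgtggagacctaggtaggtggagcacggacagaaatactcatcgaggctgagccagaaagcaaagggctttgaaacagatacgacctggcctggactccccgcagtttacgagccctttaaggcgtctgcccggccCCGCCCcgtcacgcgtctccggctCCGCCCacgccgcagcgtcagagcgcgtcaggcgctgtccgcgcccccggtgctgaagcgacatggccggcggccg
Unc13b promoter, chr4:43058703-43059002, plus strand: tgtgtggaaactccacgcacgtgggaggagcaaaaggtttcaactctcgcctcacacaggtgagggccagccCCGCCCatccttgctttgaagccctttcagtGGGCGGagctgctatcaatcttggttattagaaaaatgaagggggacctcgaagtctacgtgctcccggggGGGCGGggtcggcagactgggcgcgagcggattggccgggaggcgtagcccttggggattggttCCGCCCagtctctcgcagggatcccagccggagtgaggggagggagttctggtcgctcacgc
The Unc13b window held 4 GC boxes, the Slc17a7 window 3, the Unc13a window 2, and the Synpr windows 1 and 0. Promoters of 32 of the 39 members were in the RefSeq table. A GC box stood in 25 of these 32 (78.1%), against 38.2% of all promoters and 49.2% of those of protein-coding genes. The E-box CAGCTG stood in 10 members (31.2%, against 18.3% of all promoters), and the TATA box TATAAA, searched also as TTTATA, in 1 member (3.12%, against 15.7%), the vesicle protein gene Sv2b. The core bound by Rbpj, TGGGAA or TTCCCA, stood in 9 members (28.1%), against 28.3% of all promoters, and in none of the 5 windows shown. The cyclic AMP response element TGACGTCA was found in the Syn1 promoter alone (3.12% of members, 2.03% of all promoters). The AP-1 motif TGACTCA or TGAGTCA was found in the Erc2 and Syt2 promoters (6.25% of members, 5.95% of all promoters). None of these motifs contains another, and a match describes letters in this window only.

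The libraries held 16887885 to 24944681 counts on annotated genes. Levels are given as CPM, counts scaled to a common library size with TMM factors, and differences as log2 fold changes from edgeR's quasi-likelihood fit to all 12 libraries, with p-values adjusted by the Benjamini-Hochberg method over all 17995 genes and a threshold of 0.05. Library means of log2 CPM ranged from 5.23 to 5.67 for 10 cortical excitatory neuron markers and from 5.93 to 6.87 for 10 striatal projection neuron markers, against 1.46 to 1.999 for cerebellar granule neuron markers, so the defining markers of forebrain were present. Mitochondrial genes took 18.6% of counts in exposed knockout replicate 1 and 16.4% in exposed wildtype replicate 3, the highest shares, and 12.2% to 15.2% in the other 10 libraries. Xist, which is transcribed from the inactive X chromosome of females, had 6 counts in exposed knockout replicate 3 and 12 in exposed wildtype replicate 3, and 5919 to 10767 in the others. The 39 genes took between 1.22% (exposed knockout replicate 1) and 1.48% (exposed wildtype replicate 1) of all counts. In bulk tissue fewer cells of a type and less RNA per cell cannot be told apart, for every level given here.

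Per kilobase of exon, averaged over the 12 libraries, the SNARE clamps led: Cplx2 stood at 315.9 CPM per kb and Cplx1 at 272.2. The vesicle SNARE gene Vamp2 (233.3) and the membrane SNARE gene Snap25 (226.8) came next. They were followed by Slc17a7 (188.8), which encodes the vesicular glutamate transporter VGLUT1 of cortical and hippocampal neurons, and the vesicle GTPase gene Rab3a (154.7). Slc32a1, which encodes the vesicular GABA transporter, stood at 31.6 CPM per kb, and Slc17a6, which encodes the glutamate transporter VGLUT2 of thalamic and other subcortical neurons, at 3.01. Among the Munc13 priming factors, Unc13a (21.6 CPM per kb) stood above Unc13c (11.8) and Unc13b (1.62). Syn3, a synapsin known mainly from immature neurons, was lowest at 0.323 CPM per kb, about 4 CPM in all. Exon lengths were taken from an annotation of the earlier build GRCm38 and count every exon of a gene, so levels between genes are approximate.

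**Figure D1:**
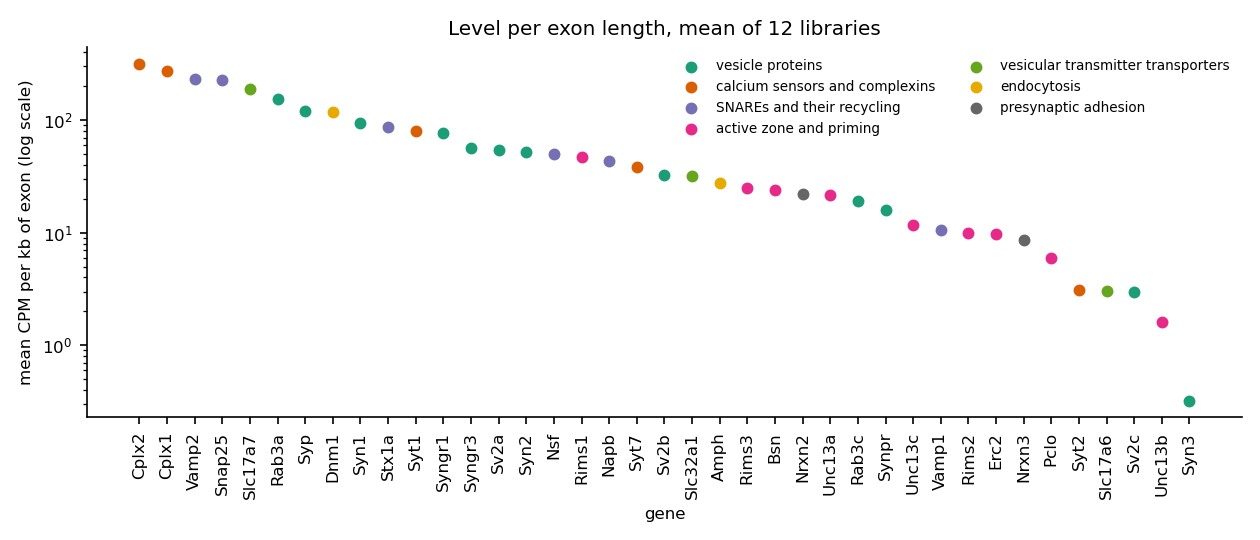
Mean CPM per kilobase of exon over the 12 libraries (log scale) for the 39 presynaptic genes, in falling order, coloured by role. Complexins and SNARE genes lead, with Cplx2 at 315.9, and Syn3 is lowest at 0.323.

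Within groups, the members differed in how tightly replicates lay together. The pooled SD of log2 CPM within groups was 0.025 for the neurexin gene Nrxn2 and 0.035 for Vamp2, the tightest, and 0.321 for Slc17a6, 0.236 for Syn3, 0.205 for Unc13c and 0.198 for Rims1, the loosest. Vamp2 had 921.1, 878.4 and 873.9 CPM in exposed knockouts, 865.6, 856.0 and 885.8 in unexposed knockouts, 897.7, 912.6 and 904.8 in exposed wildtypes, and 916.0, 893.9 and 857.0 in unexposed wildtypes. The 12 values ran from 856.0 to 921.1 CPM, and the 95% intervals of its log2 fold changes ran from -0.10 to 0.17 for the drug in knockouts and from -0.11 to 0.16 for the drug in wildtypes.

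In wildtypes exposed to valproic acid before birth, Synpr fell and Unc13a rose. Synpr encodes synaptoporin, a vesicle protein of the synaptophysin family found in a subset of terminals that includes the hippocampal mossy fibres. Unc13a encodes Munc13-1, the main priming factor of forebrain glutamatergic synapses. These were 2 of 39 members past the test in exposed against unexposed wildtypes, 1 in each direction (5.13%), where 0.895% of all tested genes passed, 0.206% as higher and 0.689% as lower. DESeq2's Wald test passed 4 of 39, where 1.85% of all tested genes passed. At an unadjusted p under 0.05 there were 11 members (28.2%), 10 of them higher, against 14.2% of all tested genes. The log2 fold change was positive for 29 of 39 members, with a median of 0.10, against 51.5% of all tested genes and a median of 0.01. With a library left out the median ran from 0.06 (without exposed wildtype replicate 1) to 0.12. Marker lists of other cells moved in the same comparison. Of 10 cortical excitatory neuron markers 9 were higher (median 0.22), summing to 515.8 to 593.9 CPM in exposed wildtypes and 441.3 to 513.4 in unexposed wildtypes, and of 10 microglia markers 9 were higher (median 0.17). All 10 oligodendrocyte markers were lower (median -0.11), summing to 8804 to 11080 CPM in exposed wildtypes and 10250 to 10870 in unexposed wildtypes. No marker in these lists passed the test or was at 0, and their part in the members' values was not tested.

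Synpr had 118.7, 131.8 and 138.0 CPM in exposed knockouts, 156.7, 169.9 and 189.3 in unexposed knockouts, 124.3, 124.3 and 111.9 in exposed wildtypes, and 172.9, 173.7 and 207.3 in unexposed wildtypes. Every exposed library lay below every unexposed library, in both genotypes. Synpr fell in exposed against unexposed wildtypes by 0.62 on the log2 scale (SE 0.08), 1.54-fold, with an adjusted p of 0.000539 in edgeR's test. It passed in that comparison under all 22 other settings and left-out libraries tried. Its log2 fold change in exposed against unexposed knockouts was -0.41 (SE 0.08, adjusted p = 0.0593 in edgeR's test), which did not pass, though it did under 6 of the 22 other settings. The difference between these effects was 0.21 (SE 0.12, adjusted p = 0.850 for the interaction in edgeR's test), so the fall was not shown to differ between genotypes.

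Markers of regional neurons were read beside Synpr. The mean log2 CPM of the 10 striatal projection neuron markers was 5.99 to 6.33 in exposed knockouts, 6.24 to 6.87 in unexposed knockouts, 5.93 to 6.09 in exposed wildtypes and 6.68 to 6.79 in unexposed wildtypes, and none of the 10 was at 0. In exposed against unexposed wildtypes all 10 were lower and 5 fell, Drd1 and Tac1 among them, with a median log2 fold change of -0.69. Summed, these markers came to 871.8 to 1136 CPM in exposed knockouts, 1057 to 1726 in unexposed knockouts, 876.5 to 972.0 in exposed wildtypes and 1452 to 1530 in unexposed wildtypes. Among unexposed knockouts the replicate with the highest striatal mean (replicate 1, 6.87) had the lowest Synpr, 156.7 CPM. The 9 olfactory bulb markers in the table had a mean of 2.60 to 3.29 in exposed knockouts, 3.13 to 4.29 in unexposed knockouts, 2.61 to 2.85 in exposed wildtypes and 2.94 to 4.98 in unexposed wildtypes, with none at 0, and the highest Synpr of each unexposed group was in its library of highest olfactory mean. Given as single libraries, unexposed wildtype replicates 1 and 2 had olfactory means of 2.98 and 2.94 with 172.9 and 173.7 CPM of Synpr. Exposed knockout replicate 3 had an olfactory mean of 3.29 with 138.0 CPM. The part of either marker list in the Synpr result was not tested.

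The priming factor Unc13a was higher in every exposed library. It had 295.4, 278.7 and 294.6 CPM in exposed knockouts, 247.7, 257.8 and 237.7 in unexposed knockouts, 307.9, 304.2 and 304.7 in exposed wildtypes, and 261.3, 263.3 and 222.0 in unexposed wildtypes. All 6 exposed libraries lay above all 6 unexposed libraries. The gene rose in exposed against unexposed wildtypes by 0.30 (SE 0.07, adjusted p = 0.0472 in edgeR's test), a call that held under 8 of 22 other settings and was lost in 10 of the 12 fits with a library left out, where the adjusted p ranged from 0.0343 to 0.292 in edgeR's test. The highest of these came without unexposed wildtype replicate 3, where the log2 fold change was 0.22. In knockouts the log2 fold change was 0.23 (SE 0.07, adjusted p = 0.153 in edgeR's test).

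Unc13b, which encodes Munc13-2, had 43.70, 38.99 and 37.68 CPM in exposed knockouts, 28.4, 38.1 and 37.0 in unexposed knockouts, 42.4, 40.2 and 42.6 in exposed wildtypes, and 31.71, 35.03 and 26.73 in unexposed wildtypes. The wildtype groups did not overlap and the knockout groups did. Its log2 fold change was 0.42 in wildtypes (SE 0.10, adjusted p = 0.0514 in edgeR's test) and 0.22 in knockouts (SE 0.10, adjusted p = 0.328), neither past the test. Unc13c, which encodes the Munc13-3 known best from the cerebellum, had 134.2, 85.6 and 95.8 CPM in exposed knockouts, 100.2, 106.9 and 97.4 in unexposed knockouts, 78.9, 96.7 and 105.2 in exposed wildtypes, and 119.9, 116.2 and 109.5 in unexposed wildtypes. The wildtype groups did not overlap, its level in exposed knockout replicate 1 was the highest of all 12, and its log2 fold change was -0.30 in wildtypes (SE 0.15, adjusted p = 0.416 in edgeR's test) and 0.05 in knockouts.

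**Figure D2:**
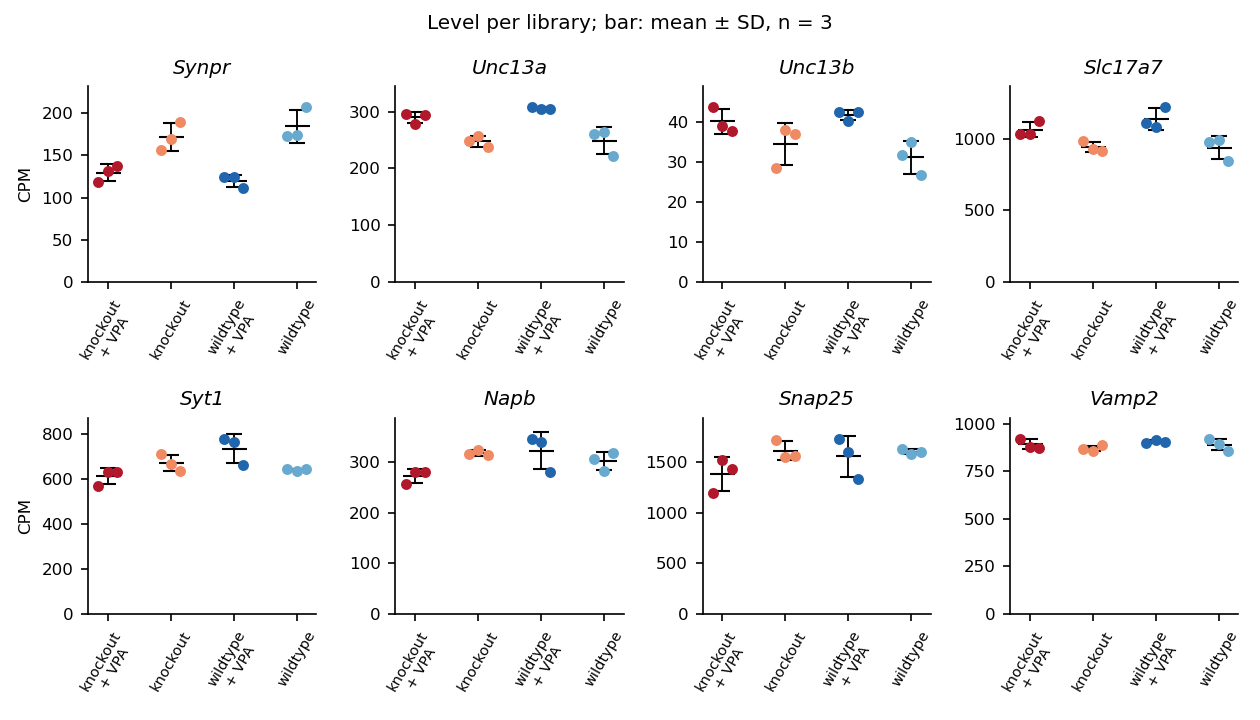
CPM per library (points, replicates 1 to 3 from left) with mean and SD (bars, n = 3) for 8 presynaptic genes in exposed knockouts, unexposed knockouts, exposed wildtypes and unexposed wildtypes. Exposed libraries of Synpr lie below and those of Unc13a above every unexposed library, while Vamp2 stays between 856.0 and 921.1 CPM.

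Each genotype gave the drug comparison 3 libraries a side, and the mean of both drug effects, a contrast chosen after the data were seen, uses all 12. In it 3 members rose (Unc13a, Unc13b and Slc17a7) and 1 fell (Synpr), 4 of 39 (10.3%), where 5.99% of all tested genes passed, 2.12% as higher and 3.87% as lower. At an unadjusted p under 0.05 there were 16 members (41.0%, 11 higher and 5 lower), against 21.8% of all tested genes. The contrast is built from the same libraries as the comparisons within genotypes and is not independent of them. Synpr fell by 0.51 (SE 0.06, adjusted p = 3.27e-05 in edgeR's test) and Unc13a rose by 0.26 (SE 0.05, adjusted p = 0.00558 in edgeR's test), both under all 21 other settings. Unc13b rose by 0.32 (SE 0.07, adjusted p = 0.0135 in edgeR's test). That call was lost without both libraries lacking Xist and without the 2 libraries of highest mitochondrial share, with adjusted p-values up to 0.0920 in edgeR's test.

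Slc17a7 rose by 0.23 in the same contrast (SE 0.06, adjusted p = 0.0180 in edgeR's test). It had 1029, 1033 and 1125 CPM in exposed knockouts, 979.7, 926.3 and 910.8 in unexposed knockouts, 1108, 1077 and 1219 in exposed wildtypes, and 978.5, 989.6 and 842.3 in unexposed wildtypes. All 6 exposed libraries lay above all 6 unexposed ones. The call was lost without exposed knockout replicate 3, unexposed knockout replicate 3 or unexposed wildtype replicate 3, with adjusted p-values up to 0.0598 in edgeR's test, and without both libraries lacking Xist (0.123). Of 10 cortical excitatory neuron markers, 9 were higher in this contrast, with a median log2 fold change of 0.13, and Cux2 rose. Their library means were 5.39 to 5.56 log2 CPM in exposed knockouts, 5.35 to 5.5 in unexposed knockouts, 5.47 to 5.67 in exposed wildtypes and 5.23 to 5.45 in unexposed wildtypes, with none at 0, and their part in the Slc17a7 result was not tested.

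The other vesicular transporters did not pass. Slc32a1 had 82.9, 80.1 and 87.2 CPM in exposed knockouts, 105.6, 90.01 and 81.54 in unexposed knockouts, 82.0, 91.3 and 74.8 in exposed wildtypes, and 87.6, 86.2 and 112.2 in unexposed wildtypes. The exposed groups overlapped the unexposed ones, and the mean drug effect was -0.18 (SE 0.08, adjusted p = 0.186 in edgeR's test). Gm14205 on the opposite strand covers 24.9% of the exon bases of Slc32a1, and whether the counting used strand is not known here. The GABA-synthesis genes Gad1 and Gad2, which share the GABAergic neurons with Slc32a1, fell in that contrast by 0.41 and 0.44 (adjusted p = 0.0424 and 0.0490 in edgeR's test). They were the 2 of 10 GABA interneuron markers that fell, 0 rose, and the 10 had 3 positive and 7 negative log2 fold changes with a median of -0.08. Slc17a6 had 14.15, 18.03 and 12.27 CPM in exposed knockouts, 18.8, 15.9 and 14.1 in unexposed knockouts, 17.7, 16.7 and 15.1 in exposed wildtypes, and 14.4, 12.6 and 25.2 in unexposed wildtypes. All groups overlapped, and the value of 25.2 was in unexposed wildtype replicate 3. That library had the highest marker means for hypothalamic (3.37), olfactory bulb (4.98) and thalamic and midbrain (3.86) neurons. The part of these lists in the Slc17a6 level was not tested.

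In exposed against unexposed knockouts no member passed edgeR's test, where 0.0556% of all tested genes did. With DESeq2's Wald test 1 member passed, where 1.07% of all tested genes did, and with limma-voom 0, where 0.0167% did. At an unadjusted p under 0.05 there were 14 members (35.9%, 7 higher and 7 lower), against 14.9% of all tested genes. The median log2 fold change was 0.01, as for all genes tested, and 20 of 39 were positive, against 51.8% of all tested genes. That median changed sign with a library left out, between -0.06 (without unexposed knockout replicate 3) and 0.04. By role, 8 of 9 active zone and priming genes had positive fold changes (median 0.20) and 9 of 12 vesicle protein genes negative ones (median -0.07). Over all tested genes 51.8% were positive and 48.2% negative. Exposed knockout replicate 1 had the highest of all values for Rims1, Rims3, Unc13b and Unc13c. It had the lowest for Erc2 and for Syn2, Syn3, Syp, Syngr3, Sv2a, Sv2b, Sv2c and Rab3a. The split by role was not counted again without that library. After Synpr the smallest p-values were those of Sv2c, Unc13a and Nrxn3.

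Sv2c encodes the SV2 isoform found mainly in the basal ganglia. It had 24.15, 24.98 and 26.21 CPM in exposed knockouts, 36.5, 30.6 and 26.1 in unexposed knockouts, 27.7, 30.9 and 27.3 in exposed wildtypes, and 31.9, 31.5 and 30.2 in unexposed wildtypes. The knockout groups overlapped by a narrow margin, and the log2 fold change in knockouts was -0.31 (SE 0.10, adjusted p = 0.146 in edgeR's test). In the same comparison 0 of 10 striatal markers passed the test and all 10 log2 fold changes were negative (median -0.33). Every exposed knockout had less Sv2c than every exposed wildtype. The striatal means were 5.99 to 6.33 in exposed knockouts and 5.93 to 6.09 in exposed wildtypes. The part of these markers in the Sv2c level was not tested. Nrxn3, a neurexin gene whose products bind postsynaptic partners across the cleft, had 92.2, 98.6 and 98.5 CPM in exposed knockouts, 107.9, 117.7 and 108.5 in unexposed knockouts, 113.2, 116.7 and 99.7 in exposed wildtypes, and 109.8, 114.4 and 115.4 in unexposed wildtypes. All 3 exposed knockouts lay below the other 9 libraries, with a log2 fold change of -0.21 in knockouts (SE 0.07, adjusted p = 0.164 in edgeR's test).

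**Figure D3:**
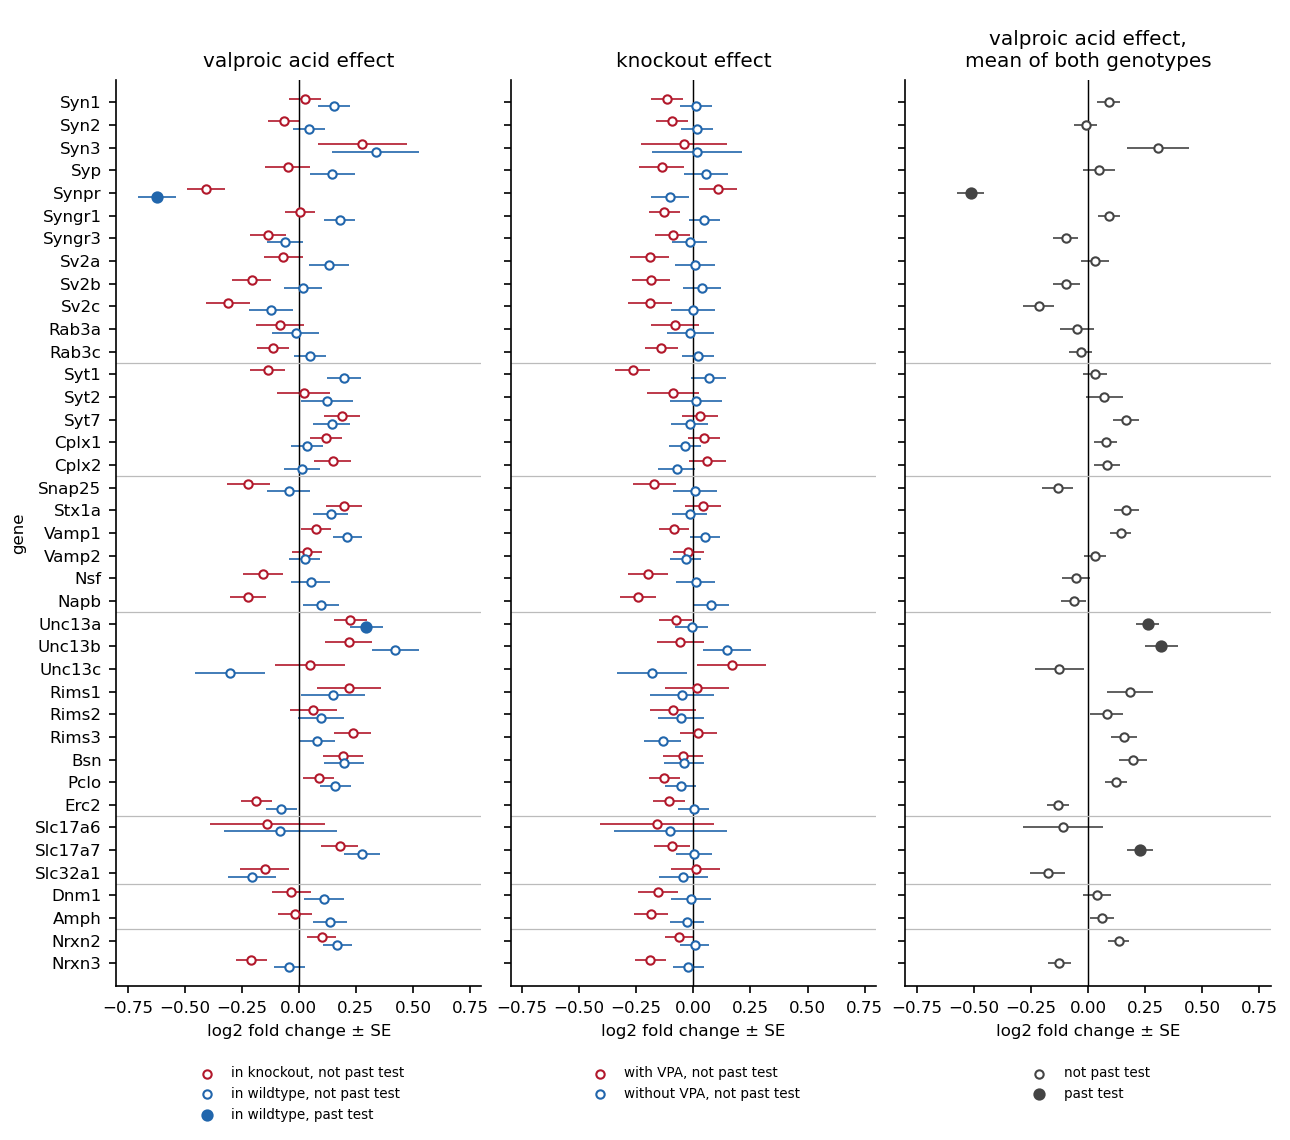
Log2 fold change ± SE of the 39 presynaptic genes for the drug within each genotype (left), for the knockout with and without the drug (middle) and for the mean drug effect (right); filled points passed the test. Synpr is at -0.62 in wildtypes and -0.41 in knockouts, and no point in the middle panel is filled.

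Without the drug, the knockout and wildtype groups gave no member past the test. The count was 0 of 39 with edgeR, with DESeq2's Wald test and with limma-voom, and 0 at an unadjusted p under 0.05, where 0.0389% and 3.13% of all tested genes passed these thresholds in edgeR's fit, 0.0445% the first with DESeq2 and 0.0333% with limma-voom. Fold changes lay between -0.18 (Unc13c) and 0.15 (Unc13b), with a median of -0.01 and 18 of 39 positive, against 49.7% of all tested genes. The smallest p was that of Rims3, a short RIM-family gene. It had 237.7, 206.7 and 184.0 CPM in exposed knockouts, 180.4, 173.7 and 179.3 in unexposed knockouts, 195.6, 202.2 and 221.2 in exposed wildtypes, and 208.1, 190.6 and 186.6 in unexposed wildtypes. The unexposed groups did not overlap, and the log2 fold change was -0.13 (SE 0.08, 95% interval -0.29 to 0.02, adjusted p = 0.9996 in edgeR's test). For Snap25, Stx1a and Syt1 the 95% intervals of this comparison were -0.18 to 0.19, -0.17 to 0.14 and -0.08 to 0.22 on the log2 scale.

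With the drug, 30 of 39 members were lower in exposed knockouts than in exposed wildtypes, but none passed the test. The median log2 fold change was -0.09, against 0.00 for all tested genes, of which 48.8% were lower. By edgeR, DESeq2's Wald test and limma-voom the count past the test was 0 of 39, where 0.05%, 0.139% and 0.0611% of all tested genes passed in these 3 fits. At an unadjusted p under 0.05 there were 7 members, all lower (17.9%), against 7.44% of all tested genes. This comparison and that of exposed with unexposed wildtypes share the exposed wildtype libraries, so a high level there enters both with opposite signs. Beside the members, 10 of 10 pan-neuronal markers were lower, with a median of -0.12 and library means of 7.93 to 8.11 log2 CPM in exposed knockouts and 8.02 to 8.22 in exposed wildtypes, and 10 of 10 choroid plexus markers were higher, with a median of 0.60 and means of 4.89 to 5.17 against 3.81 to 4.76. None of either list was at 0, and their part in the members' values was not tested.

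Syt1, the fast calcium sensor of vesicle fusion in the forebrain, had the smallest p. It had 570.4, 632.0 and 632.8 CPM in exposed knockouts, 709.6, 669.0 and 637.6 in unexposed knockouts, 780.5, 762.9 and 662.9 in exposed wildtypes, and 644.1, 636.4 and 643.4 in unexposed wildtypes. Exposed knockouts lay below the other 9 libraries, and exposed wildtypes lay above the unexposed ones. The log2 fold change was -0.27 (SE 0.08, adjusted p = 0.410 in edgeR's test). Napb, which encodes the beta form of SNAP, the adaptor that brings the ATPase NSF to spent SNARE complexes, had 257.0, 279.6 and 280.1 CPM in exposed knockouts, 315.6, 323.7 and 313.1 in unexposed knockouts, 346.2, 339.7 and 279.8 in exposed wildtypes, and 305.4, 281.4 and 316.7 in unexposed wildtypes. Exposed wildtype replicate 3 lay within the range of exposed knockouts, and the log2 fold change was -0.24 (SE 0.08, adjusted p = 0.453 in edgeR's test). Without that library both genes passed, with log2 fold changes of -0.34 each and adjusted p-values of 0.0348 for Syt1 and 0.0315 for Napb in edgeR's test. In that fit 86 of all 17995 tested genes passed, against 9 in the fit to all libraries. Neither gene passed in the other 11 fits with a library left out.

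Amph, which encodes amphiphysin, had 111.3, 121.1 and 124.8 CPM in exposed knockouts, 132.5, 119.8 and 109.0 in unexposed knockouts, 142.3, 135.3 and 128.3 in exposed wildtypes, and 122.1, 116.6 and 130.1 in unexposed wildtypes. The exposed groups did not overlap, and the log2 fold change was -0.18 (SE 0.07, adjusted p = 0.558 in edgeR's test). The difference between the drug effects of the genotypes reached an adjusted p under 0.05 for 0 of 39 members, where 0% of all tested genes passed. At an unadjusted p under 0.05 there were 2 members (5.13%, Syt1 and Napb), against 5.97% of all tested genes, and DESeq2's Wald test and limma-voom also gave 0, with 0% of all tested genes. The difference was -0.33 for Syt1 (SE 0.11, adjusted p = 0.833 in edgeR's test) and -0.32 for Napb. Next by p were Sv2b, which encodes an SV2 isoform, at -0.22 and Syngr1, which encodes the vesicle protein synaptogyrin, at -0.17.

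Sv2b had 219.1, 268.4 and 251.7 CPM in exposed knockouts, 304.4, 279.3 and 269.3 in unexposed knockouts, 299.1, 291.8 and 250.4 in exposed wildtypes, and 271.4, 297.8 and 261.8 in unexposed wildtypes. Exposed knockouts lay below unexposed knockouts, while the wildtype groups overlapped. Syngr1 had 363.0, 366.5 and 367.4 CPM in exposed knockouts, 388.9, 350.2 and 353.6 in unexposed knockouts, 408.4, 402.1 and 387.6 in exposed wildtypes, and 346.7, 367.5 and 343.9 in unexposed wildtypes. Exposed wildtypes lay above unexposed wildtypes, while the knockout groups overlapped.

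**Figure D4:**
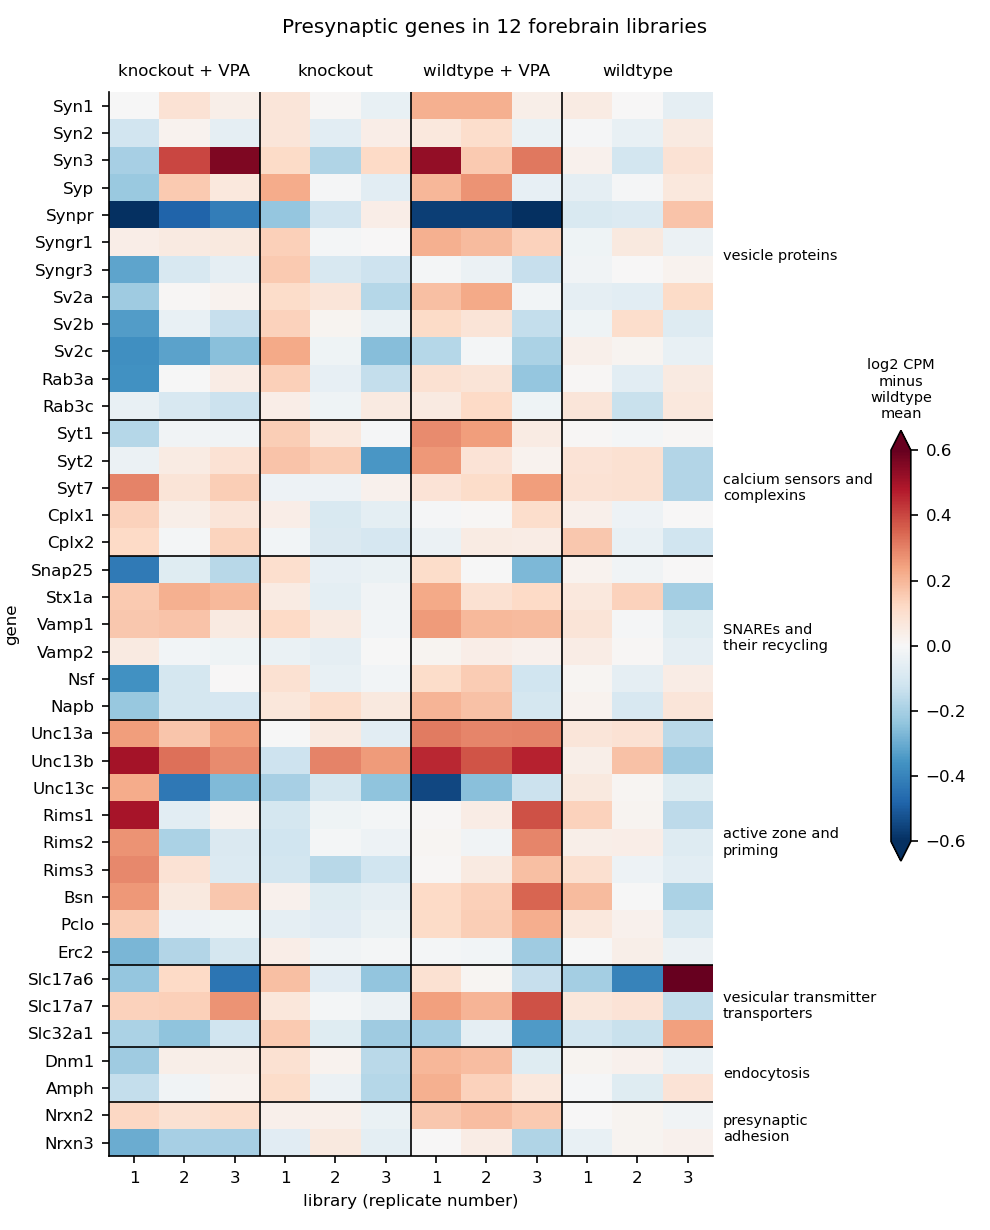
Log2 CPM of the 39 presynaptic genes in each of the 12 libraries minus the mean of the 3 unexposed wildtypes, grouped by role; colours saturate at 0.6. Synpr is low in all 6 exposed libraries, and exposed knockout replicate 1 and exposed wildtype replicate 3 share low Snap25 with high Rims1.

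A pattern that cut across the groups set exposed knockout replicate 1 and exposed wildtype replicate 3 apart. Exposed knockout replicate 1 had the lowest of the 12 values for 15 members, among them Syp, Rab3a, Snap25, Nsf and Dnm1, and the highest for 7, among them Rims1, Rims3, Unc13b and Unc13c. Each set against the mean of the other 2 libraries of its group, both were lower in 23 members, both were higher in 10, and 6 members had opposite signs. The 7 members lower by more than 0.2 on the log2 scale in both were Syp, Sv2a, Sv2b, Rab3a, Snap25, Nsf and Dnm1, and the 3 higher by more than 0.2 in both were Unc13c, Rims1 and Rims2. Such counts were not made over all tested genes, so the pattern is not shown to be particular to the members. These 2 libraries had the highest mitochondrial shares, 18.6% and 16.4%. They also had the highest means of the 10 astrocyte markers, 8.38 and 8.28 log2 CPM against 8.03 to 8.21 in the other 10 libraries, and the lowest of the 10 pan-neuronal markers, 7.93 and 8.02 against 8.05 to 8.22, with no marker of either list at 0. The part of these 3 measures in the members' levels was not tested. Without both, 3 members passed in exposed against unexposed wildtypes (Syt1 higher, Synpr and Unc13c lower), where 0.745% of all tested genes did. In the mean drug effect 4 then passed (Unc13a and Slc17a7 higher, Synpr and Unc13c lower), where 1.99% of all tested genes did. The other 4 comparisons gave 0 by edgeR's test, where 0.00556% (the interaction) to 0.144% (exposed knockouts against exposed wildtypes) of all tested genes passed, with 0.0222% for the drug in knockouts. Synpr then had a log2 fold change of -0.57 in wildtypes (adjusted p = 0.00449 in edgeR's test), and the median over the members in exposed knockouts against exposed wildtypes was -0.11. Unexposed wildtype replicate 3 had the lowest value for 12 members, Unc13a, Unc13b and Slc17a7 among them, and the highest for Synpr, Slc17a6 and Slc32a1.

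Snap25 had 1195, 1526 and 1430 CPM in exposed knockouts, 1724, 1553 and 1564 in unexposed knockouts, 1735, 1604 and 1334 in exposed wildtypes, and 1629, 1583 and 1606 in unexposed wildtypes. Exposed wildtypes spanned 1334 to 1735 CPM, while unexposed wildtypes stayed between 1583 and 1629. Its log2 fold change was -0.22 in exposed against unexposed knockouts (SE 0.09, adjusted p = 0.261 in edgeR's test) and -0.04 in the wildtypes. Rims1, the main RIM scaffold of the active zone, ran the other way, with 458.9, 311.3 and 330.8 CPM in exposed knockouts, 302.8, 320.2 and 323.3 in unexposed knockouts, 327.5, 335.8 and 424.4 in exposed wildtypes, and 358.1, 329.6 and 292.3 in unexposed wildtypes. The values of 458.9 and 424.4 came from those same 2 libraries. Rims1 was described for this pattern after its values were seen.

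Stx1a, the syntaxin of the plasma membrane that pairs with Snap25 and Vamp2, had 241.5, 250.6 and 247.8 CPM in exposed knockouts, 224.0, 207.7 and 213.6 in unexposed knockouts, 253.4, 230.6 and 234.9 in exposed wildtypes, and 226.2, 238.6 and 188.0 in unexposed wildtypes. The knockout groups did not overlap and the wildtype groups did. The log2 fold change was 0.20 in knockouts (SE 0.08, adjusted p = 0.226 in edgeR's test), 0.14 in wildtypes and 0.17 in the mean drug effect (SE 0.05, adjusted p = 0.0692 in edgeR's test), none past the test.

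The remaining 20 members gave no result past the test in any comparison and are given by their group means. In exposed against unexposed wildtypes the log2 fold changes of these 20 ran from -0.08 (Erc2) to 0.34 (Syn3), with 17 positive. In exposed against unexposed knockouts they ran from -0.19 (Erc2) to 0.28 (Syn3), with 11 positive. Over all tested genes 51.5% and 51.8% were positive in these comparisons. The knockout groups did not overlap for 7 of the 20 (Cplx2, Bsn, Nrxn2, Syt7, Rab3c, Pclo and Erc2). The wildtype groups did not for 4 (Nrxn2, Pclo, Vamp1 and Syn3). Such overlap was not counted over all tested genes. Among the vesicle proteins, Syn1, the major synapsin, averaged 306.6 ± 9.66 CPM in exposed knockouts, 301.0 ± 12.3 in unexposed knockouts, 332.6 ± 22.96 in exposed wildtypes and 298.7 ± 10.9 in unexposed wildtypes (SD, n = 3 in each group, as for the values that follow). Syn2, which also tethers vesicles to actin, averaged 356.0 ± 17.3 CPM in exposed knockouts, 372.4 ± 18.3 in unexposed knockouts, 379.4 ± 19.2 in exposed wildtypes and 368.1 ± 12.6 in unexposed wildtypes. Syn3 varied most between replicates among these 20 genes, in relative terms. Syn3 stood at 4.3 ± 1.1 CPM in exposed knockouts, 3.58 ± 0.411 in unexposed knockouts, 4.46 ± 0.573 in exposed wildtypes and 3.52 ± 0.246 in unexposed wildtypes. Timp3 on the opposite strand covers 14.1% of its exon bases. Syp, which encodes synaptophysin, averaged 606.1 ± 80.6 CPM in exposed knockouts, 626.6 ± 67.7 in unexposed knockouts, 667.3 ± 74.99 in exposed wildtypes and 602.9 ± 25.6 in unexposed wildtypes. Syngr3, a synaptogyrin gene, had 109.4 ± 10.4 CPM in exposed knockouts, 120.1 ± 13.3 in unexposed knockouts, 116.5 ± 5.45 in exposed wildtypes and 121.5 ± 1.71 in unexposed wildtypes. For Syp, Gm14703 on the opposite strand covers 16.8% of exon bases. Sv2a, the target of the anticonvulsant levetiracetam, averaged 238.8 ± 21.4 CPM in exposed knockouts, 250.2 ± 25.5 in unexposed knockouts, 272.8 ± 23.8 in exposed wildtypes and 249.0 ± 17.7 in unexposed wildtypes. Rab3a came to 329.2 ± 48.9 CPM in exposed knockouts, 348.5 ± 35.5 in unexposed knockouts, 348.2 ± 42.2 in exposed wildtypes and 351.7 ± 14.5 in unexposed wildtypes. Rab3c, a second Rab3 GTPase gene, had 217.5 ± 6.54 CPM in exposed knockouts, 235.1 ± 6.79 in unexposed knockouts, 239.7 ± 12.1 in exposed wildtypes and 231.8 ± 18.4 in unexposed wildtypes. Exposed and unexposed knockouts did not overlap for Rab3c, while they did for the other vesicle protein genes given here.

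Among the calcium sensors and complexins, Syt2, the fast sensor best known from the hindbrain, averaged 23.3 ± 1.01 CPM in exposed knockouts, 22.8 ± 4.36 in unexposed knockouts, 24.8 ± 2.17 in exposed wildtypes and 22.8 ± 2.31 in unexposed wildtypes. Syt7, which serves slower and facilitated release, averaged 307.4 ± 24.4 CPM in exposed knockouts, 269.9 ± 5.74 in unexposed knockouts, 301.5 ± 19.01 in exposed wildtypes and 273.0 ± 27.9 in unexposed wildtypes. Exposed means of Syt7 lay above unexposed ones in both genotypes, with a mean drug effect of 0.17 (SE 0.06, adjusted p = 0.0800 in edgeR's test). Cplx1 stood at 621.8 ± 21.7 CPM in exposed knockouts, 572.5 ± 26.6 in unexposed knockouts, 601.6 ± 26.3 in exposed wildtypes and 587.0 ± 12.6 in unexposed wildtypes. Cplx2 came to 1635 ± 89.8 CPM in exposed knockouts, 1474 ± 45.7 in unexposed knockouts, 1567 ± 51.1 in exposed wildtypes and 1551 ± 160.1 in unexposed wildtypes. Exposed and unexposed knockouts did not overlap for Cplx2 and Syt7 and met near 602 CPM for Cplx1, while the wildtype groups overlapped for each of these. Among the SNARE genes and those that recycle them, Vamp1, a second vesicle SNARE gene, ran from 103.6 to 112.4 CPM in exposed knockouts, from 98.7 to 108.5 in unexposed knockouts, from 114.1 to 119.3 in exposed wildtypes and from 95.1 to 105.6 in unexposed wildtypes. Exposed wildtypes lay above unexposed wildtypes, with a log2 fold change of 0.21 (SE 0.06, adjusted p = 0.109 in edgeR's test). Nsf, the ATPase that takes spent SNARE complexes apart, had 382.8 ± 48.4 CPM in exposed knockouts, 426.7 ± 21.4 in unexposed knockouts, 439.1 ± 43.4 in exposed wildtypes and 423.7 ± 14.5 in unexposed wildtypes.

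At the active zone, Rims2, a second RIM scaffold gene, averaged 103.4 ± 17.9 CPM in exposed knockouts, 98.8 ± 3.99 in unexposed knockouts, 109.9 ± 13.4 in exposed wildtypes and 102.6 ± 4.61 in unexposed wildtypes. Bsn, which encodes the giant scaffold bassoon, averaged 398.6 ± 28.1 CPM in exposed knockouts, 348.2 ± 12.9 in unexposed knockouts, 411.1 ± 36.7 in exposed wildtypes and 358.0 ± 47.1 in unexposed wildtypes. Pclo, which encodes its relative piccolo, had 134.1 ± 9.57 CPM in exposed knockouts, 126.2 ± 1.16 in unexposed knockouts, 146.5 ± 5.54 in exposed wildtypes and 131.2 ± 7.11 in unexposed wildtypes. The mean drug effect was 0.20 for Bsn (SE 0.06, adjusted p = 0.0583 in edgeR's test) and 0.12 for Pclo (SE 0.05, adjusted p = 0.125 in edgeR's test). Erc2, which encodes the scaffold CAST, stood at 87.7 ± 5.12 CPM in exposed knockouts, 99.9 ± 2.3 in unexposed knockouts, 94.5 ± 7.26 in exposed wildtypes and 99.7 ± 2.46 in unexposed wildtypes. Erc2 thus ran against the other scaffolds, with a mean drug effect of -0.13 (SE 0.05, adjusted p = 0.104 in edgeR's test). Dnm1, the neuronal dynamin, averaged 591.7 ± 57.1 CPM in exposed knockouts, 604.9 ± 53.8 in unexposed knockouts, 658.2 ± 67.9 in exposed wildtypes and 609.9 ± 15.8 in unexposed wildtypes. Nrxn2 came to 310.0 ± 3.27 CPM in exposed knockouts, 289.0 ± 8.28 in unexposed knockouts, 323.3 ± 3.62 in exposed wildtypes and 287.7 ± 3.79 in unexposed wildtypes. Nrxn2, the member with the smallest spread between replicates, had exposed above unexposed libraries in both genotypes and a mean drug effect of 0.13 (SE 0.04, adjusted p = 0.0747 in edgeR's test), not past the test.

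**Figure D5:**
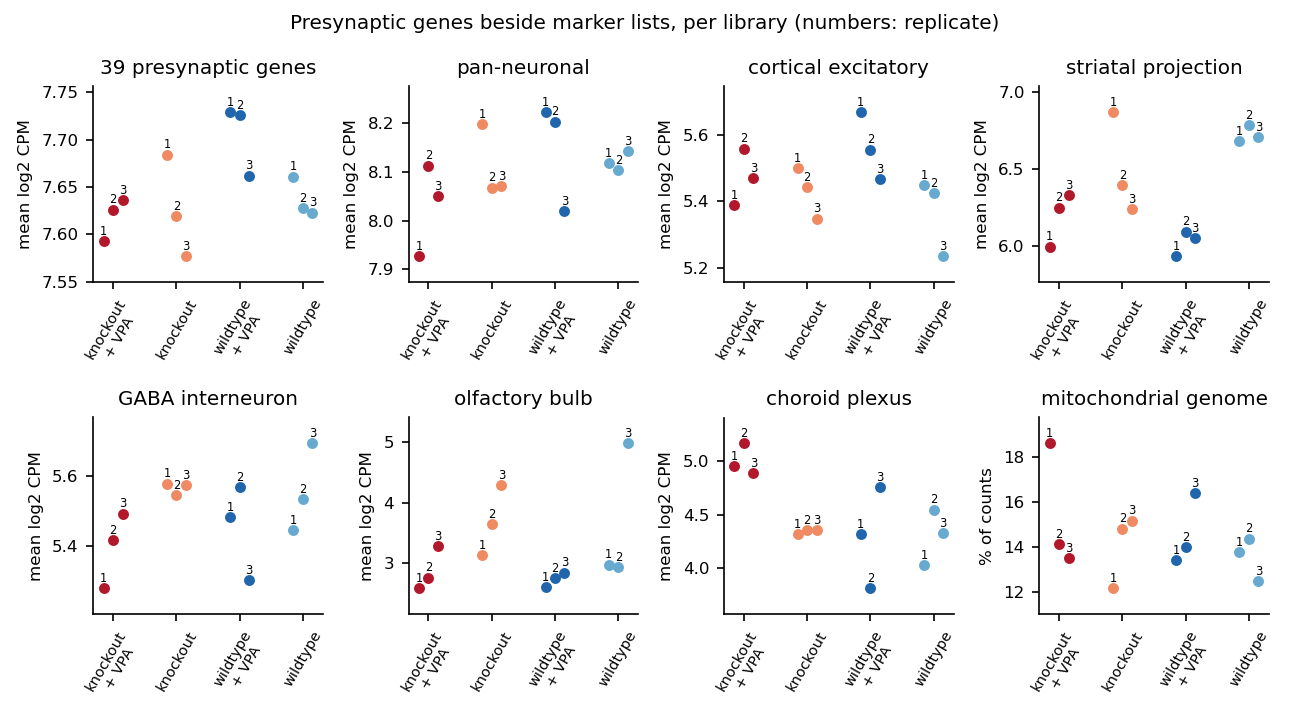
Mean log2 CPM of the 39 presynaptic genes and of 6 marker lists, and the mitochondrial share of counts, per library (points, numbered by replicate) in the 4 groups. Striatal markers are lower in every exposed wildtype (5.93 to 6.09) than in any unexposed wildtype (6.68 to 6.79), and exposed knockout replicate 1 has the highest mitochondrial share, 18.6%.

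Other genes of the presynapse were read from a list of 58, all of them tested. Of these, 0 rose and 1 fell in exposed against unexposed wildtypes, where 0.895% of all tested genes passed. That gene, Syt6, a synaptotagmin, fell by 0.86 (SE 0.11, adjusted p = 0.000159 in edgeR's test). It had 17.4, 19.3 and 22.2 CPM in exposed knockouts, 28.9, 26.0 and 23.9 in unexposed knockouts, 16.38, 20.05 and 16.01 in exposed wildtypes, and 30.7, 29.5 and 34.9 in unexposed wildtypes. As with Synpr, every exposed library lay below every unexposed one. In the mean drug effect 1 of 58 rose and 3 fell, where 2.12% of all tested genes passed as higher and 3.87% as lower. The calcium channel gene Cacna1a rose by 0.21 (adjusted p = 0.0193 in edgeR's test). Among those that fell were Syt6, by 0.64, and Scamp1, which encodes a vesicle carrier protein, by 0.16 (adjusted p = 4.32e-05 and 0.0497 in edgeR's test). In the 2 knockout comparisons, in exposed against unexposed knockouts and in the interaction, 0 of 58 passed in edgeR's test, where at most 0.0556% of all tested genes did. In exposed knockouts against exposed wildtypes 44 of the 58 were lower, with a median log2 fold change of -0.08. Beside this stood 30 of 39 and -0.09 for the members, and 48.8% of all tested genes were lower.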

How the data were processed

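RNA from mouse brain had been rRNA-depleted and made into libraries with an NEBNext Ultra kit, per the labels' protocols, and aligned with HISAT2 to GRCm39, per the submitters' processing notes, which give no version. The table, as deposited, gives each Ensembl gene's raw count, made by the authors with a counting program, annotation and strand setting that no source here records. The values are whole numbers with a different total in each of the 12 libraries, and 22955 of 56748 genes were at 0 in all of them. Symbols for 52073 identifiers, holding 99.51% of counts, exon lengths and overlaps came from annotation of GRCm38, and promoters from RefSeq on GRCm38.p6.

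Tests were run in R 4.3.3 (DESeq2 1.42.0, limma 3.58.1, edgeR 4.0.16), and summaries and plots in Python 3.11.15 (pandas 2.3.3, matplotlib 3.10.9). Genes were kept with filterByExpr, libraries scaled with TMM factors (0.93 to 1.02), and a robust quasi-likelihood model (edgeR) with 1 mean per group fitted to the 12 libraries together, tested two-sidedly and adjusted by Benjamini-Hochberg over all tested genes. The steps were tested on simulated data. SE is the log2 fold change over the root of its F statistic, an interval is 1.96 SE either side, and library means of log2 CPM use a prior count of 2. A CPM is a count scaled to its library, so a gene's level falls where others rise.

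The members and lists were chosen with earlier results of these data known. Values in every library are given for members past the test, the 4 smallest p-values per comparison, Snap25, Stx1a, Vamp2, Syt1 and the 3 transporters, and of the other presynaptic genes for those past the test, 1 of which is not reported here. The mean drug effect and the fits without the 2 libraries of highest mitochondrial share were added after the data were seen.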

Additional observations from a re-analysis of the deposited data

How the results depend on the processing

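Of the 39 members, 2 passed in exposed against unexposed wildtypes. The count was 5 with no count filter, where 512 of 33793 genes passed, and 4 with DESeq2's Wald test, where 1.85% of all tested genes did. It was 1 with a replicate block, where 28 genes passed as higher and 87 as lower. It was also 1 without both libraries lacking Xist, where 40 of 17995 genes passed. With a library left out the member count ran from 1 to 3, beside 14 to 225 of all 17995 genes, and Synpr was past the test each time. In exposed against unexposed knockouts, 0 became 1 (Synpr) with no count filter (391 of 33793 genes), with DESeq2's Wald test (1.07%) and with only the libraries compared (21 genes higher and 17 lower). It ran from 0 to 1 with a library left out, beside 2 to 162 of all 17995 genes. In exposed knockouts against exposed wildtypes the member count ran from 0 to 2, with 2 (Syt1 and Napb) without exposed wildtype replicate 3, where 86 of 17995 genes passed. For the mean drug effect, 4 became 9 with no count filter (1453 of 33793 genes) and 2 without both libraries lacking Xist (298 of 17995 genes). It ran from 3 to 6 with a library left out, beside 426 to 1193 of all 17995 genes. The knockout without the drug and the interaction stayed at 0 in every fit. The causes were not tested. With a library left out, the median over the members moved from 0.10 to 0.06 in exposed against unexposed wildtypes (without exposed wildtype replicate 1), from 0.05 to 0.02 in the mean drug effect (without unexposed knockout replicate 3; also 0.03 without exposed wildtype replicate 2 and 0.03 without exposed knockout replicate 2) and from -0.10 to -0.16 in the interaction (without exposed wildtype replicate 3). It took both signs in exposed against unexposed knockouts (-0.06 to 0.04) and in the knockout without the drug (-0.04 to 0.02). No value past the test turned its sign.

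Over all genes, the 161 past the test in exposed against unexposed wildtypes became 14 without unexposed wildtype replicate 3 and 512 with no filter. The 10 in knockouts ran from 2 to 391, the 9 in exposed knockouts against exposed wildtypes from 7 to 86, the 7 without the drug from 6 to 15, the 0 of the interaction from 0 to 5, and the 1078 of the mean drug effect from 298 to 1453. The labels name no pairing of same-numbered libraries. Their deviations from group means correlated at -0.06 to 0.11. Differently numbered libraries were not compared in this way, so these values cannot decide whether the replicate block carries a pairing. The least reliable folds are those of Slc17a6 and of the lowest member, Syn3 at about 4 CPM. Their pooled SDs of log2 CPM within groups were 0.321 and 0.236, the largest of the members.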
